A study of Trichoderma reesei with 36 samples.

Results

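The comparison of 10% lactose with pure glucose at 24 h covers 8 libraries of 36 in the series. Of these, 2 came from *T. reesei* Rut-C30 cultures that received a mixture of 90% glucose and 10% lactose (G90-L10), which is every library of that feed and time, and 6 came from cultures that received 100% glucose (G100). Libraries were chosen by their labels of feed and sampling time alone. Every culture of the series grew first on glucose in batch mode, and its broth was then divided into flasks that received a slow feed. The 24 h and 48 h of the labels are sampling times during this feed. The strain is a hyperproducing mutant, and the G90-L10 and G100 cultures carry the same genotype. The other groups used below are the mixture G75-L25 (25% lactose, 4 libraries at 24 h), pure lactose (L100, 6 libraries at 24 h), and G90-L10 and G100 at 48 h (2 and 6 libraries).

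*T. reesei* is a filamentous fungus that secretes cellulases and hemicellulases, and lactose is a soluble inducer of these enzymes used in industry. The sugar is taken up by permeases, mainly CRT1, and is split by β-galactosidase into glucose and galactose. The zinc-binuclear-cluster activator XYR1 is needed for the expression of the main cellulase and xylanase genes, while ACE3 and CLR2 act beside it. In many strains glucose represses these genes through CRE1, and Rut-C30 carries a truncated *cre1*.

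Total counts were 22815888 and 23276552 on G90-L10 and between 17523122 and 23709853 on G100. Labels start with 2015 for G90-L10 and G75-L25 and with 2014 for G100 and L100, so that feed and label year cannot be told apart in the comparison of G90-L10 with G100. The labels number the libraries serially and do not say which flasks were filled from the same batch culture. Of the 36 libraries, 8 lay nearer to another group than to the rest of their own, by the root mean square difference of log2 levels. For 4 of these the nearest group had the same feed at the other time, as for replicate 2 of G90-L10 at 24 h, which lay at 0.393 from G90-L10 at 48 h and at 0.423 from replicate 1. For 4 it had another feed: replicate 3 of L100 at 48 h lay nearest to G100 at 48 h, replicate 4 of G75-L25 lay nearest to L100 at both times, and replicate 1 of G90-L10 at 48 h lay nearest to G75-L25 at 48 h (0.33, against 0.535 from its only replicate). Of these, the L100 library and both G75-L25 libraries are left out in a second fit. They enter the comparison only through the shared estimate of the spread, and counts are therefore also given from the 33 other libraries. The 10 most abundant genes took 11.1% to 12.2% of the counts on G90-L10, against 5.93% to 7.91% on G100. No pair of replicates agreed within sampling noise, with a chi-square per degree of freedom over genes of 62.3 on G90-L10 and between 18.3 and 78 on G100. In these bulk cultures, a change in the RNA of each cell and a change in the share of cells that express a gene cannot be told apart.

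At 24 h, most listed genes of cellulose and xylan degradation and of sugar uptake rose on G90-L10 relative to G100: 10 of 12 cellulases, 13 of 19 hemicellulases and 7 of 10 sugar transporters, together with the regulators XYR1, ACE3 and CLR2. The study chose the members of these lists on these same libraries, so that such counts are not independent evidence of a direction. A membrane receptor and a small secreted protein were among the fewer genes that fell. Of 8347 genes tested, 312 (3.74%) were higher and 79 (0.946%) lower on G90-L10 than on G100 at an adjusted p below 0.05, the threshold for the words rose and fell below. Levels are given in CPM, counts scaled to a common library total with TMM factors, and the tests are edgeR's quasi-likelihood tests with Benjamini-Hochberg adjustment over all genes tested. Genes are called differentially expressed (DE) where the adjusted p is below 0.001 and the log2 fold change exceeds 2 in either direction. Of these, 18 were higher (0.216%) and 1 was lower (0.012%). In the 33 libraries, 1030 genes (12.4%) were higher and 683 (8.19%) lower, of which 82 (0.984%) and 12 (0.144%) were DE. Without replicate 1 of G90-L10 the counts were 90 higher and 11 lower, and without replicate 2 they were 21 and 1, with the remaining library assumed to vary as the other groups do. Of the 57 named genes that were called, 23 lost the call without replicate 1 and 41 without replicate 2. Among the genes below, CRT1, CLR2, BGA1, LAD1, CBH2, CIP2, ABF1, GLR1, XLT1 and XYR1 lost it without either library. So did each β-glucosidase that rose, and most of the genes of smallest adjusted p that fell. LAD1 lost it also without G100 replicate 2 or 5, and CIP2 without G100 replicate 1 or 5. CEL3C and XLT1 lost it also with library size alone and without any 1 of several G100 replicates. CBH1, EGL1, EGL2, CEL74A and BXL1 were among those that lost it only without replicate 2 of G90-L10. ACE3, XYN1 and ID 122824 were among those that kept it under each alternative run. Leaving out L100 replicate 3 of 48 h alone gave 879 and 488. The median log2 fold change over all genes tested was 0.00399.

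**Figure D1:**
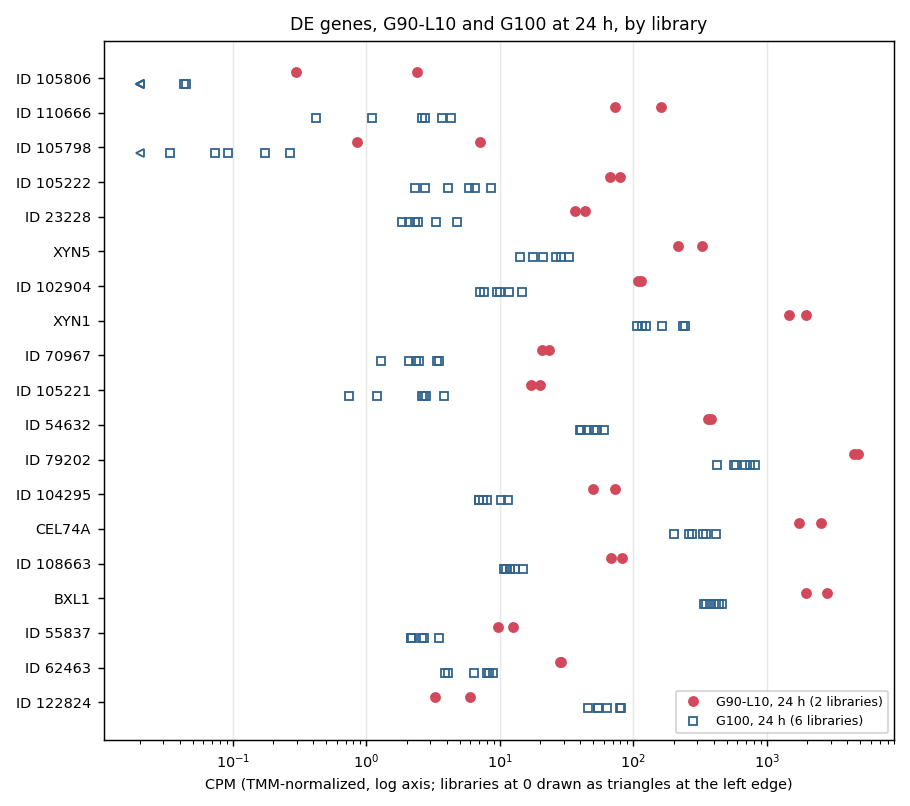
CPM of the 19 DE genes in each library at 24 h, on a log axis, with the 2 G90-L10 libraries as filled circles above the 6 G100 libraries as open squares. For each gene both G90-L10 libraries lie outside the range of the 6 G100 libraries, and for ID 122824 alone they lie below it. The genes were picked on these same libraries. Over all genes tested, 20.9% lie above and 18.3% below the G100 range in this way.

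Among the permeases of the sugar transporter list, 7 of 10 rose and 0 fell, with a median log2 fold change of 2.14. CRT1, the main lactose permease, had 24637 and 26190.0 CPM on G90-L10, against 4343 to 7382 CPM (median 6109) on G100. The G90-L10 libraries lay above every G100 library, and CRT1 rose 4.21-fold (log2 fold change 2.08, SE 0.49, adjusted p = 0.0117). The putative sugar transporter ID 54632 was DE, with 363 and 378 CPM on G90-L10, against 39.7 to 60.3 CPM (median 47.8) on G100 (log2 fold change 2.94, SE 0.46, adjusted p = 3.15e-04). The putative MFS permease ID 79202, which the list does not hold, reached 4848 and 4519 CPM on G90-L10, against 426 to 817 CPM (median 637) on G100, and rose 7.35-fold (log2 fold change 2.88, SE 0.48, adjusted p = 7.53e-04). Both permeases were close between the G90-L10 libraries and well apart from all 6 on glucose.

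The steepest fold changes in the transporter list belonged to ID 69957, annotated as a D-xylose transporter, with 66.4 and 75 CPM on G90-L10 and 4.65 to 9.44 CPM (median 7.02) on G100, and to ID 106556, annotated as a low-affinity hexose transporter, with 39.6 and 41.4 CPM on G90-L10 and 3.17 to 6.22 CPM (median 4.28) on G100. Their log2 fold changes were 3.32 (SE 0.59, adjusted p = 0.00132) and 3.21 (SE 0.69, adjusted p = 0.0065). ID 56684, the pentose transporter ID 50894 and the xylose permease XLT1 also rose, with log2 fold changes of 2.36, 2.20 and 1.49. CLP1 did not pass the test (log2 fold change 1.30, SE 0.47, adjusted p = 0.102). The putative high-affinity glucose transporter hxt1 had 45.6 and 57.8 CPM on G90-L10, against 75.1 to 205 CPM (median 126) on G100, and the difference did not pass the test either (log2 fold change −1.28, SE 0.87, adjusted p = 0.381). The study chose the members of this list on these libraries, and likewise those of the enzymes, regulators, receptors, cell wall proteins and chaperones below, so that their counts are not independent evidence of a direction. In the lists of transporters, cellulases, β-glucosidases, hemicellulases and sugar metabolism, 0 members were lower at an unadjusted p below 0.05 by edgeR, and DESeq2 called 0 lower. Over the 33 libraries, 8 sugar transporters were higher and 1 lower at an adjusted p below 0.05. Of 20 alternative runs, 4 called hxt1 lower.

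Of 23 transcription factors, 4 rose and 0 fell, while the median log2 fold change was −0.60. XYR1 had 1552 and 1732 CPM on G90-L10, against 657 to 895 CPM (median 730.5) on G100, and rose 2.2-fold (log2 fold change 1.14, SE 0.33, adjusted p = 0.0381). ACE3, an activator of cellulase genes, had 861 and 742 CPM on G90-L10, against 210.0 to 281 CPM (median 256) on G100, and rose 3.19-fold (log2 fold change 1.67, SE 0.28, adjusted p = 6.36e-04). Both G90-L10 libraries lay above all G100 libraries for XYR1 and ACE3. The call of XYR1 was lost without either G90-L10 library and without any 1 of G100 replicates 1 to 5 (highest adjusted p = 0.352), at log2 fold changes of 0.99 to 1.22 over all alternatives. CLR2, the homologue of a regulator of cellulose degradation in *Neurospora crassa*, had 28 and 32.5 CPM on G90-L10, against 8.13 to 13.7 CPM (median 10.5) on G100 (log2 fold change 1.52, SE 0.37, adjusted p = 0.0154). The fourth, ID 105805, is described with its neighbours below.

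YPR1, a regulator of the yellow pigment of *T. reesei*, had 29.5 and 26.2 CPM on G90-L10, against 5.57 to 8.93 CPM (median 5.69) on G100. It did not pass the test over all 36 libraries (log2 fold change 2.14, SE 0.73, adjusted p = 0.0854). Over the 33 libraries it was DE (log2 fold change 2.14, adjusted p = 1.83e-04). Homologues of regulators of sporulation and development, such as Tr-ACON-3 and Tr-WET-1, had negative values that did not pass it. Tr-ACON-3 had 82.4 and 132 CPM on G90-L10, against 130.4 to 253 CPM (median 201) on G100 (log2 fold change −0.87, SE 0.79, adjusted p = 0.519). Tr-AZF-1, Tr-PRO1 and Tr-WET-1 had log2 fold changes of −0.96, −0.75 and −0.72, CTF1 and RES1 of −1.36 and −0.68, and STB4 of 0.92. Over the 33 libraries, 8 factors were higher and 6 lower at an adjusted p below 0.05. Over all 36, edgeR gave 4 factors lower at an unadjusted p below 0.05, and DESeq2 called 1 lower.

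Promoter letters are shown here for CBH1, CBH2, EGL1, SWO1, CRT1 and MAN1, since XYR1 is known to bind GGCTAA and these genes rose together with it. The sites come from the study's own search of 18 promoters, of which 17 belong to genes that rose on G90-L10. The study had picked the promoters as those of plausible XYR1 or CLR2 targets, in a network inferred from these same libraries. Both strands were searched. Capitals mark the motif within 4 flanking bases on each side, read 5′ to 3′ on the strand of the match.
CBH1 site a: caatGGCTAAaagt
CBH1 site b: cagcGGCTAAtaat
CBH1 site c: aagtGGCTAAacgt
CBH1 site d: ccctGGCTAAatac
CBH1 site e: tcttGGCTAAgctt
CBH2 site a: ttgaGGCTAAtgaa
CBH2 site b: gcacGGCTAAtaaa
CBH2 site c: tggcGGCTAAtgag
EGL1: atcaGGCTAAatca
SWO1 site a: cgttGGCTAAagaa
SWO1 site b: agtgGGCTAAggaa
SWO1 site c: cagaGGCTAAaagt
CRT1: cttaGGCTAAtctc
MAN1: gtatGGCTAAtgct

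GGCTAA occurred 23 times in 12 of the 18 promoters, and each of these 12 genes rose on G90-L10. Since 17 of the 18 genes rose and were picked on these libraries, this count is not independent evidence of a link. The study's other motif, GTTACA, occurred in 12 promoters, of which 11 belong to genes that rose, and 7 promoters hold both motifs, among them those of CBH2, EGL1, SWO1 and MAN1. EGL2 rose with a log2 fold change of 2.42 and has GTTACA but no GGCTAA in the searched promoter. The study gives the XYR1 site in the degenerate form GGC(A/T)(A/T)(A/T). Spellings of it other than GGCTAA were not examined here, so that a promoter without GGCTAA may still hold such a site. The share of all promoters that hold these letters was not computed here, and a match is a description of the sequence only.

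Of the 12 genes of the cellulase list, 10 rose and 0 fell, with a median log2 fold change of 2.48, and all 12 were higher over the 33 libraries. CBH1, the main cellobiohydrolase, had 19281 and 26806 CPM on G90-L10, against 2519 to 5690.5 CPM (median 4239.6) on G100. It rose 5.63-fold (log2 fold change 2.49, SE 0.55, adjusted p = 0.00863), and the lower G90-L10 library was still above the highest G100 library. CBH2, the second cellobiohydrolase, had 8105 and 10097 CPM on G90-L10, against 935 to 2376 CPM (median 1825) on G100 (log2 fold change 2.38, SE 0.55, adjusted p = 0.0108). The endoglucanases EGL1 and EGL2 rose by similar folds, with log2 fold changes of 2.46 (SE 0.52, adjusted p = 0.00551) and 2.42 (SE 0.51, adjusted p = 0.00537).

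CEL74A, a xyloglucanase, was the cellulase list's only DE gene over all 36 libraries, whereas 9 of the 12 were DE over the 33 libraries. CEL74A had 1750.0 and 2522 CPM on G90-L10, against 201 to 415 CPM (median 302) on G100 (log2 fold change 2.81, SE 0.49, adjusted p = 9.25e-04). The largest fold in the list was that of CEL61B, a putative lytic polysaccharide monooxygenase, with 47.4 and 86.7 CPM on G90-L10, against 1.23 to 10.9 CPM (median 7.78) on G100 (log2 fold change 3.37, SE 0.79, adjusted p = 0.0117). ID 49976, swollenin SWO1, CIP1 and the glucuronoyl esterase CIP2 also rose, with log2 fold changes of 3.02, 2.56, 2.62 and 2.43. The exceptions were EGL3 and CEL61A, whose G90-L10 libraries lay above all G100 libraries without passing the test. EGL3 had 229 and 161 CPM on G90-L10, against 27.5 to 99 CPM (median 55.9) on G100 (log2 fold change 1.73, SE 0.59, adjusted p = 0.0818). CEL61A had 847 and 1514 CPM on G90-L10, against 199 to 664 CPM (median 459) on G100 (log2 fold change 1.45, SE 0.53, adjusted p = 0.104).

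β-Glucosidases split cellobiose into glucose. Of 7, 5 rose and 0 fell (median log2 fold change 1.57): CEL1A, CEL3E, CEL3D, CEL3C and CEL1B, with log2 fold changes between 1.52 and 1.94. CEL1A, an intracellular enzyme, had 3544 and 3026 CPM on G90-L10, against 608 to 1063 CPM (median 882) on G100 (SE 0.44, adjusted p = 0.0102). The extracellular enzyme BGL1 had 118 and 87.9 CPM on G90-L10, against 22 to 96.3 CPM (median 50.3) on G100, and the groups overlapped (log2 fold change 0.97, SE 0.59, adjusted p = 0.329). CEL3B overlapped too, with 217 and 282 CPM on G90-L10 and 281 to 507 CPM (median 428) on G100 (log2 fold change −0.75, SE 0.66, adjusted p = 0.503).

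**Figure D2:**
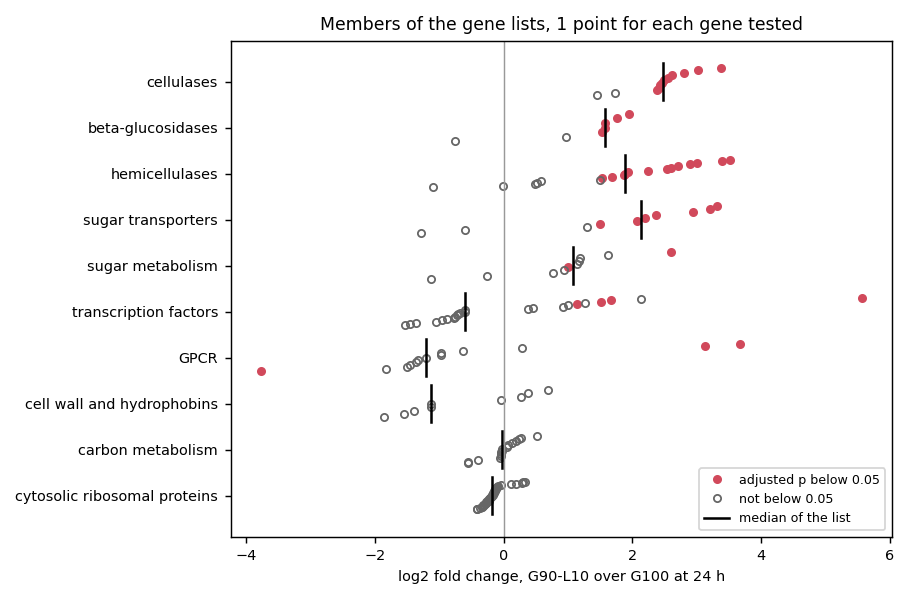
Log2 fold change of G90-L10 over G100 at 24 h for each tested member of 10 gene lists, with filled circles for an adjusted p below 0.05 and a bar at the median of each list. The medians are 2.48 for the cellulases, 1.57 for the β-glucosidases, 1.89 for the hemicellulases, 2.14 for the sugar transporters and −0.18 for the ribosomal proteins.

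Of 19 hemicellulases and side-chain enzymes, 13 rose and 0 fell, with a median log2 fold change of 1.89, and over the 33 libraries 14 were higher and 1 lower. The family's xylanases gave 2 of the DE genes. XYN1 had 1466 and 1967 CPM on G90-L10, against 107 to 242 CPM (median 144) on G100, and rose 10.4-fold (log2 fold change 3.38, SE 0.57, adjusted p = 7.53e-04). XYN5 had 214 and 326 CPM on G90-L10, against 14.2 to 32.7 CPM (median 23.8) on G100, and rose 11.5-fold (log2 fold change 3.52, SE 0.53, adjusted p = 2.14e-04). In contrast, the xylanase XYN2 had 41 and 81 CPM on G90-L10, against 12.2 to 111 CPM (median 65.4) on G100, so that the groups overlapped (log2 fold change −0.018, SE 1.05, adjusted p = 0.994). XYN3, XYN6 and XYN4 rose with log2 fold changes of 3.00, 2.23 and 1.93, where XYN3 was at only 3.92 and 8.77 CPM on G90-L10.

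The β-xylosidase BXL1, which releases xylose from short chains, had 1972 and 2808 CPM on G90-L10, against 341 to 459.6 CPM (median 395) on G100, and was DE (log2 fold change 2.59, SE 0.43, adjusted p = 6.41e-04). Arabinofuranosidases remove arabinose side chains, and ABF2 and ABF1 rose with log2 fold changes of 2.90 (SE 0.56, adjusted p = 0.00256) and 1.87 (SE 0.48, adjusted p = 0.0209). ABF3 had 76 and 57.3 CPM on G90-L10, below every G100 library at 105 to 231 CPM (median 119), without passing the test (log2 fold change −1.10, SE 0.75, adjusted p = 0.382). The acetyl esterase AES1, the mannanase MAN1, the α-glucuronidase GLR1 and ID 55999 rose with log2 fold changes of 2.70, 2.53, 1.53 and 1.89. The acetyl xylan esterase AXE1 (log2 fold change 1.50, SE 0.48, adjusted p = 0.0641) and the α-galactosidase AGL3 (log2 fold change 0.51, SE 0.81, adjusted p = 0.729) did not pass the test.

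The enzymes that use lactose itself gave an uneven picture. BGA1, the β-galactosidase that splits lactose, had 388 and 349 CPM on G90-L10, against 80.0 to 152 CPM (median 112) on G100, and rose 3.22-fold (log2 fold change 1.69, SE 0.40, adjusted p = 0.0137). ID 56840, a putative galactose dehydrogenase, had 343 and 351 CPM on G90-L10, against 46.6 to 78.9 CPM (median 53) on G100 (log2 fold change 2.59, SE 0.49, adjusted p = 0.00243). The Leloir pathway, the main route of galactose, had 0 of 3 genes past the test: gal7, gal1 and gal10 had log2 fold changes of 0.34, 0.33 and 0.14, of which 2 were past an unadjusted p of 0.05 and 0 were called by DESeq2. All 3 lay above every G100 library on both G90-L10 libraries, as did 20.9% of all genes, and 1 was higher over the 33 libraries. In the sugar metabolism list, 2 of 10 rose and 0 fell (median 1.07), and the second was the arabinitol dehydrogenase LAD1, with 48.7 and 48.7 CPM on G90-L10, against 20.5 to 27.6 CPM (median 24.6) on G100 (log2 fold change 1.00, SE 0.27, adjusted p = 0.0264). AEP2, GAR1, XKI1 and LXR1 had log2 fold changes of 1.18, 1.14, 0.77 and −0.25 and did not pass the test. Over the 33 libraries, 8 members of this list were higher and 1 lower.

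DE genes outside these lists had other functions. The putative ferric reductase ID 110666, of a class of membrane enzymes that reduce iron before its uptake, had 72.4 and 160.2 CPM on G90-L10, against 0.416 to 4.28 CPM (median 2.69) on G100. It rose 46.9-fold (log2 fold change 5.55, SE 0.75, adjusted p = 2.87e-05). Of the 4 ferric reductases listed, 2 rose and 0 fell. ID 23228, a putative DUF1479 protein, had 36.6 and 43.1 CPM on G90-L10, against 1.86 to 4.76 CPM (median 2.37) on G100 (log2 fold change 3.83, SE 0.46, adjusted p = 6.03e-06). ID 108663, a putative small secreted cysteine-rich protein, had 81.9 and 67.9 CPM on G90-L10, against 10.7 to 15 CPM (median 11.9) on G100 (log2 fold change 2.61, SE 0.30, adjusted p = 6.03e-06). In each of these genes the G90-L10 libraries lay several-fold above the highest G100 library.

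Of the DE genes, 4 have no known function in the study's annotation: ID 105222, ID 102904, ID 105221 and ID 104295. ID 105222 had 78.9 and 66.8 CPM on G90-L10, against 2.31 to 8.54 CPM (median 5) on G100 (log2 fold change 3.86, SE 0.46, adjusted p = 6.03e-06). ID 102904, ID 105221 and ID 104295 had log2 fold changes of 3.46, 3.00 and 2.85. ID 55837, with a phosphoribosyltransferase domain, and ID 62463, a putative monooxygenase, had the smallest DE changes, with log2 fold changes of 2.12 and 2.11. ID 122943 was among the genes with the smallest adjusted p, with 124 and 119.7 CPM on G90-L10, against 61.2 to 69.1 CPM (median 63.6) on G100 (log2 fold change 0.92, SE 0.14, adjusted p = 2.14e-04).

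PTH11-type receptors are fungal membrane proteins coupled to G proteins. They held the only DE gene that fell and 1 of those that rose. ID 122824 had 5.95 and 3.26 CPM on G90-L10, against 45.5 to 81.2 CPM (median 59.2) on G100, a level 13.7-fold lower (log2 fold change −3.77, SE 0.49, adjusted p = 2.02e-05). ID 70967 had 23.3 and 20.8 CPM on G90-L10, against 1.28 to 3.52 CPM (median 2.42) on G100, a level 8.73-fold higher (log2 fold change 3.13, SE 0.54, adjusted p = 8.77e-04). Of 13 receptors listed, 2 rose and 1 fell, the median log2 fold change was −1.20, and 10 lay below every G100 library on both G90-L10 libraries. Over all genes, 18.3% lay below and 20.9% above every G100 library in this way. Over the 33 libraries, 2 receptors were higher and 7 lower.

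Other genes with the smallest adjusted p among those that fell changed less than the receptor in 8 of 9 cases. ID 121135, a putative small secreted cysteine-rich protein, was the exception, with 2 reads in all on G90-L10 (0.037 and 0.0402 CPM), against 1.99 to 10.6 CPM (median 3.34) on G100 (adjusted p = 0.00153). From the summed reads it was 120.5-fold higher on G100, with a 95% exact binomial interval of 33.2 to 997 that covers counting error only. The amino acid transporter ID 5787 had 5.21 and 4.02 CPM on G90-L10, against 9.56 to 21.8 CPM (median 16.7) on G100 (log2 fold change −1.78, SE 0.40, adjusted p = 0.00985). ID 38672, ID 119956, ID 45476, ID 45717, erf1, ID 75336 and ID 111937 had log2 fold changes of −1.32, −0.92, −0.59, −0.49, −0.44, −0.41 and −0.31. The eukaryotic release factor gene erf1, which acts in the termination of translation, had 195 and 200.2 CPM on G90-L10, against 249 to 283 CPM (median 267) on G100 (SE 0.097, adjusted p = 0.00835).

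Several groups had no member past edgeR's test. DESeq2 called 1 proteasome gene higher and 0 members of the other groups of this kind. Of 9 hydrophobins and cell wall proteins, which coat hyphae and spores, 0 rose and 0 fell (median log2 fold change −1.13), and 3 were lower over the 33 libraries. HFB3 had 487 and 538 CPM on G90-L10, against 1026 to 1836 CPM (median 1503) on G100 (log2 fold change −1.55, SE 1.10, adjusted p = 0.402), and QID74 had 404 and 425 CPM on G90-L10, against 508 to 2693 CPM (median 1421) on G100 (log2 fold change −1.86, SE 1.26, adjusted p = 0.379). In both genes the G90-L10 libraries lay below all 6 G100 libraries. Of 4 endoplasmic reticulum chaperones and folding enzymes, 0 passed, and 3 were higher over the 33 libraries. BIP1, the main chaperone for secreted proteins, had 1719 and 2743 CPM on G90-L10, against 1233 to 1649 CPM (median 1407) on G100 (log2 fold change 0.66, SE 0.31, adjusted p = 0.205). None of 42 cytosolic ribosomal proteins, 16 enzymes of central carbon metabolism, 15 chitinases or 6 proteasome subunits passed, with medians of −0.18, −0.03, −0.18 and 0.17. At an unadjusted p below 0.05, 4 ribosomal protein genes were lower and 0 higher, 1 carbon metabolism gene was higher and 2 lower, 1 chitinase was higher and 1 lower, and 3 proteasome genes were higher. Of the cell wall list 0 members and of the chaperones 2, both higher, passed at this level. Over the 33 libraries, at an adjusted p below 0.05, 2 ribosomal protein genes and 2 chitinases were lower. In that fit 1 carbon metabolism gene was higher and 3 lower, and 2 proteasome genes were higher. Of the ribosomal protein genes, 21 of 42 lay below every G100 library on both G90-L10 libraries and 4 above, where 18.3% of all genes lay below and 20.9% above.

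The same genes on the other feeds set the levels on G90-L10 in order. CBH1 had 2519 to 5690.5 CPM on G100, 19281 and 26806 CPM on G90-L10, 54642 to 68602 CPM in replicates 1 to 3 of G75-L25 (91397 CPM in replicate 4, which lay near L100) and 100570.0 to 155520.0 CPM on L100. The level was thus ordered by lactose with no overlap between feeds, replicate 4 included. Between G90-L10 and G75-L25, which share a label year, the log2 difference for CBH1 was −1.58 (SE 0.70, adjusted p = 0.273; over the 33 libraries −1.42, adjusted p = 0.0394), and between G90-L10 and L100 it was −2.44 (SE 0.71, adjusted p = 0.0228). XYR1 had 657 to 895 CPM on G100, 1552 and 1732 CPM on G90-L10, 2566 to 2778 CPM on G75-L25 (2915 CPM in replicate 4) and 2908 to 4032 CPM on L100.

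**Figure D3:**
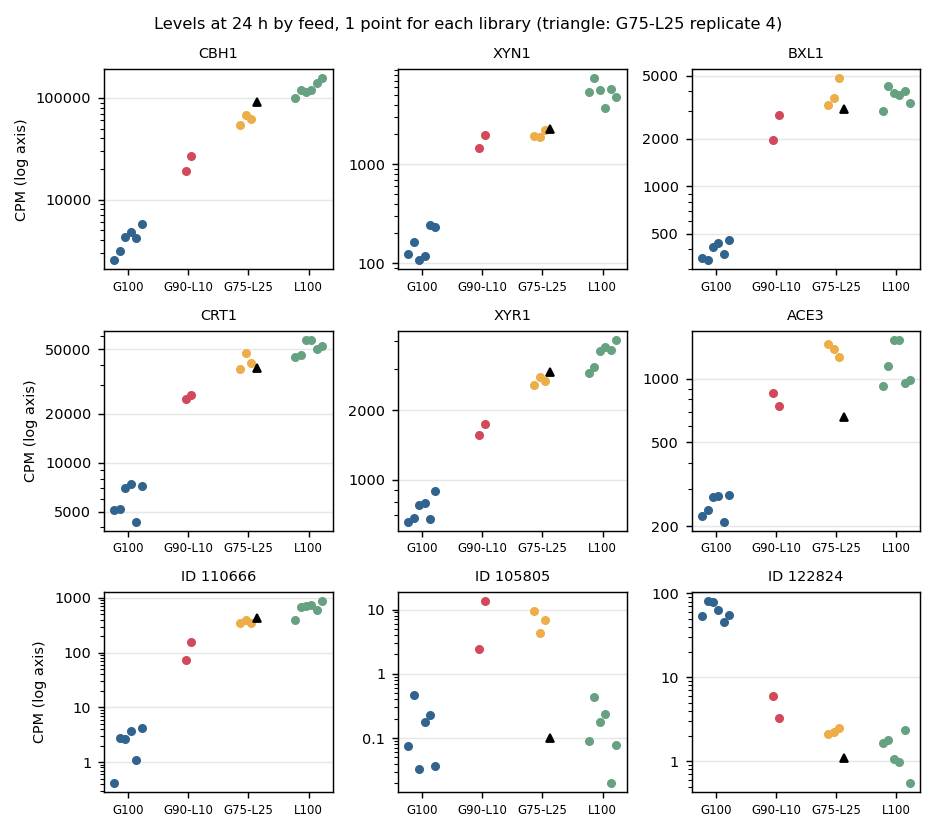
CPM at 24 h of 9 genes on feeds of 0%, 10%, 25% and 100% lactose, 1 point for each library on log axes, with replicate 4 of G75-L25 as a triangle. CBH1 increased with each step of lactose, whereas ID 105805 was between 2.4 and 13.6 CPM on G90-L10 and between 0 and 0.434 CPM on L100 (a library at 0 is drawn at the lower edge).

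Other genes did not follow this order. BXL1 had 341 to 459.6 CPM on G100, 1972 and 2808 CPM on G90-L10, 3288 to 4807 CPM on G75-L25 (3083 CPM in replicate 4) and 3009 to 4316 CPM on L100, and its log2 difference of G90-L10 from L100 was −0.64 (SE 0.49, adjusted p = 0.399). ID 105222 had 2.31 to 8.54 CPM on G100, 78.9 and 66.8 CPM on G90-L10, 42 to 75.5 CPM on G75-L25 (34.9 CPM in replicate 4) and 17.1 to 25.1 CPM on L100. Here both mixtures exceeded pure lactose, and the log2 difference of G90-L10 from L100 was 1.79 (SE 0.46, adjusted p = 0.0113). ABF1 increased with lactose like CBH1, with 12.3 to 16.7 CPM on G100, 54.9 and 53.8 CPM on G90-L10, 148 to 171 CPM on G75-L25 (224 CPM in replicate 4) and 667 to 1053 CPM on L100 (log2 difference of G90-L10 from L100 −3.95, SE 0.66, adjusted p = 3.56e-04).

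Of the 18 DE genes that rose, 18 were also higher on G75-L25 than on G100 (24.7% of all genes) and 16 on L100 than on G100 (28.5%), in comparisons that share the G100 libraries. Against L100, 4 of them were lower on G90-L10, 4 were higher and 10 had no call. Those lower were CEL74A, XYN5, ID 104295 and ID 23228, and those higher were ID 105798, ID 105806, ID 105222 and ID 62463. Over all genes, 495 (5.93%) were higher and 637 (7.63%) lower on G90-L10 than on L100, and 1294 (15.5%) and 1299 (15.6%) over the 33 libraries. Without replicate 1 or 2 of G90-L10, the calls in both directions came to 79 and 215. Of the cellulases, 9 of 12 were lower on G90-L10 than on L100, as were 9 of 19 hemicellulases.

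No gene passed the test between G90-L10 and G75-L25 by edgeR (0 of 8347, with 1251 at an unadjusted p below 0.05), while DESeq2 called 67. Without replicate 1 of G75-L25 edgeR called 299, and over the 33 libraries it called 111, of which 83 (0.996%) were lower and 28 (0.336%) higher on G90-L10. In those 33 libraries 6 of 12 cellulases and 5 of 19 hemicellulases were lower on G90-L10 than on G75-L25, and 0 were higher. The median log2 difference of the cellulases was −1.38 in all 36 libraries.

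The same comparison was made at 48 h, in libraries that the 24 h values do not use. The study's methods give as many replicates of each feed as there are libraries at each time. The libraries of the 2 times may thus come from the same flasks, and the 48 h values cannot be taken as an independent repeat. At 48 h, 617 genes (7.39%) were higher and 376 (4.5%) lower on G90-L10 than on G100, of which 7 (0.0839%) were DE (0 without either G90-L10 library of 48 h). The 19 DE genes of 24 h each had the same direction and an adjusted p below 0.05 at 48 h, and 5 of them were DE again (26.3% of those of 24 h and 71.4% of those of 48 h). Of the 391 genes called at 24 h, 225 were called in the same direction at 48 h (57.5% of those of 24 h and 22.7% of those of 48 h). BXL1 had 2857 and 2845 CPM on G90-L10 at 48 h, against 586 to 1425 CPM on G100 (log2 fold change 1.59, SE 0.44, adjusted p = 0.0175). CBH1 had 27205 and 25277 CPM on G90-L10 at 48 h, against 4576 to 14729 CPM on G100, and did not pass the test at that time (log2 fold change 1.48, SE 0.57, adjusted p = 0.081).

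**Figure D4:**
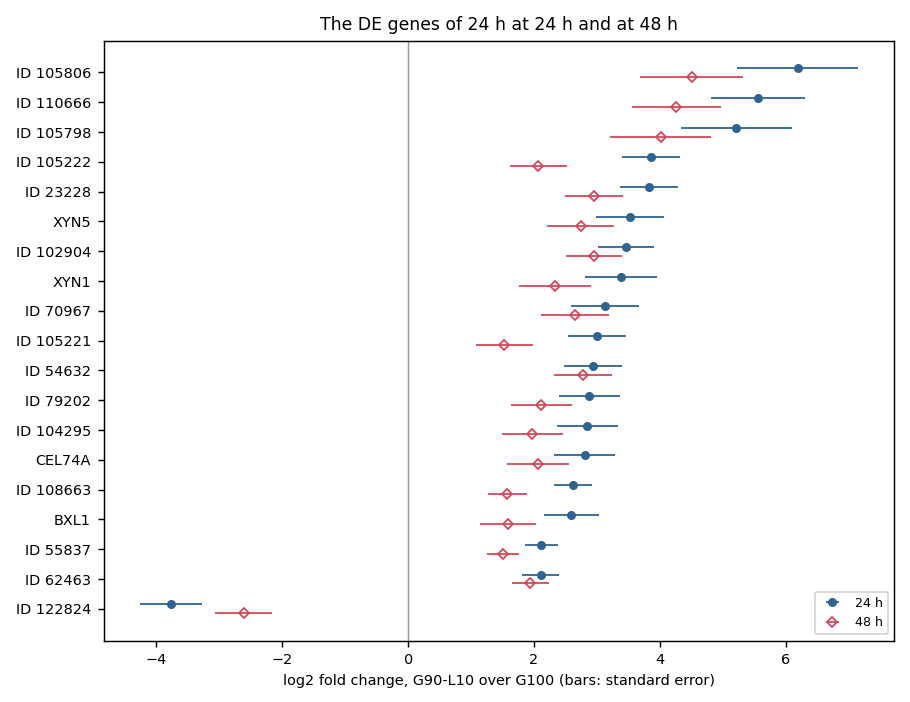
Log2 fold change of G90-L10 over G100 with its standard error for the 19 DE genes of 24 h, at 24 h (filled circles) and at 48 h (open diamonds). Each gene keeps its sign at 48 h, and each 48 h value is nearer to 0.

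The fold changes of these 19 genes were nearer to 0 at 48 h than at 24 h, but they were picked for their size at 24 h. The difference of the effect between times, tested as an interaction, passed for 0 of 8347 genes by edgeR and 0 by DESeq2, with 354 at an unadjusted p below 0.05. This test treated the libraries of both times as unpaired, although they may come from the same flasks. Of the cellulases 6 of 12 were higher at 48 h (median log2 fold change 1.53), and of the hemicellulases 8 of 19 (median 1.26).

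Several of the genes that rose were neighbours in the genome. In the gene order of the RefSeq annotation of assembly v2.0, which places 8309 of the tested genes, 10 runs of 3 or more consecutive tested genes all rose, with 38 genes in all, and 0 such runs fell. Over all genes tested, 312 (3.74%) rose and 79 (0.946%) fell, so that fewer genes could form a falling run. How many runs these shares alone would give was not computed, and runs were not counted in the 33 libraries. The length of a run was chosen after the values were seen, as were the genes named for it here. CRT1 lay in a run of 3 with the regulator CLR2 and ID 106164 (log2 fold change 2.49). ACE3 lay in a run of 3 with the β-glucosidase CEL1B and ID 77517 (log2 fold change 1.00). The permease ID 79202 was followed by ID 108663 and ID 122499 (log2 fold change 1.73), XYN1 by ID 103048 and ID 103049, and the receptor ID 70967 stood with ID 70973, ID 70998 and ID 70984, whose log2 fold changes were 2.54, 2.87 and 2.73.

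**Figure D5:**
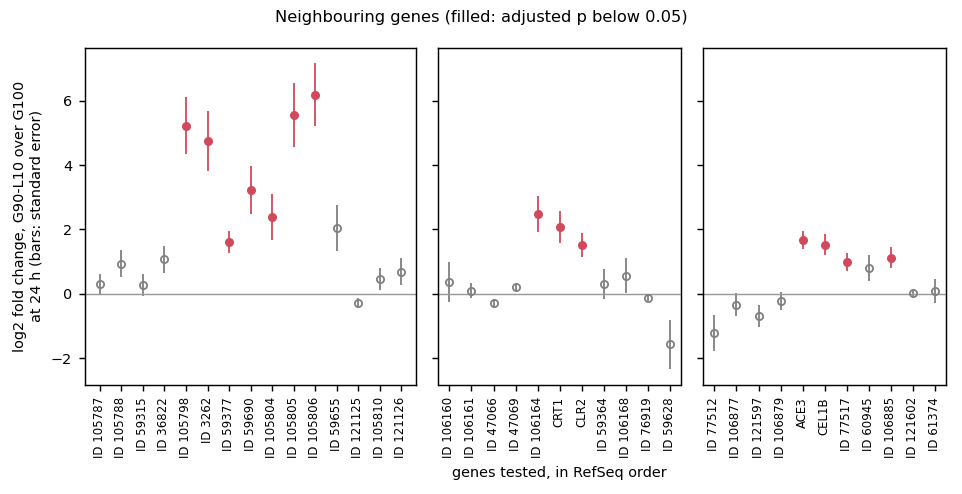
Log2 fold change with its standard error for 3 runs of neighbouring genes and their flanking tested genes, in RefSeq order, with filled circles for an adjusted p below 0.05. The run of 7 from ID 105798 to ID 105806 lies between 1.61 and 6.19.

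The longest run held 7 genes, among them 2 DE genes, the MFS transporter ID 105798 and the putative toxin biosynthesis gene ID 105806, and the zinc-cluster factor ID 105805. ID 105805 had 2.4 and 13.6 CPM on G90-L10, against 0.0335 to 0.475 CPM (median 0.127) on G100 (log2 fold change 5.56, SE 1.00, adjusted p = 0.00132). ID 105798 had 0.85 and 7.08 CPM on G90-L10, against 0 to 0.268 CPM (median 0.0826) on G100 (log2 fold change 5.21, SE 0.88, adjusted p = 7.53e-04). ID 105806 had 68 reads in all on G90-L10 (0.296 and 2.41 CPM) and 2 reads over the 6 G100 libraries, a ratio of 98.7 with a 95% exact binomial interval of 26.3 to 832 for counting error only (adjusted p = 2.90e-04). In each of the 7 genes replicate 2 of G90-L10 was above replicate 1. Without replicate 2, 0 of the 7 genes passed edgeR's test (log2 fold change 2.99, adjusted p = 0.31 for ID 105798, 3.83 and 0.177 for ID 105805, 4.01 and 0.204 for ID 105806), and without replicate 1, 6 did. Of the 38 genes in runs, 17 were called without replicate 1 and 8 without replicate 2.

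On the other feeds, ID 105805 and ID 105798 of this run differed from the cellulase genes. ID 105805 was between 4.38 and 9.31 CPM in replicates 1 to 3 of G75-L25, at 0.0999 CPM in replicate 4, and at most 0.434 CPM on L100. ID 105798 was between 1.17 and 2.69 CPM in the same 3 replicates, at 0.05 CPM in replicate 4, and at most 0.0446 CPM on L100. Both genes were thus higher in the mixtures, whose labels start with 2015, and near the level of G100 on L100, whose labels start with 2014, with replicate 4 of G75-L25 on the side of the pure feeds. ID 3262 and ID 105806 were also higher on G75-L25 than on G100, with no call on L100. ID 59690 did not share this pattern, since it was higher on L100 than on G100 (log2 fold change 2.40, edgeR adjusted p = 0.00319). Its level was 0.2 CPM in replicate 4 of G75-L25 and 0.241 to 0.278 CPM in replicates 1 to 3. ID 59377 and ID 105804 had no call against G100 on either feed, which does not show that the pattern is absent. Their means in replicates 1 to 3 of G75-L25 were 2.28 and 0.421 CPM. On G100 the means were 1.66 and 0.125 CPM and on L100 1.50 and 0.179 CPM, with libraries of G75-L25 and G100 overlapping. The part of the label year in the pattern of ID 105805 and ID 105798 was not tested.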

How the data were processed

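RNA of *T. reesei* Rut-C30 fed-batch cultures was sequenced in 36 libraries prepared with a strand-specific kit. The authors deposited whole-number counts of reads per gene of the JGI annotation version 2 for 9129 genes, without normalization. They trimmed and filtered reads with the Eoulsan pipeline, and the submitters' processing notes name bcl2fastq 2.17.1.14, Bowtie and HTSeq 0.5.3. The strand setting of the counting is not given in the sources used here, so that reads of overlapping genes may be shared.

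The analysis of counts used R 4.3.3 and edgeR 4.0.16, in which filterByExpr (minimum count 10) kept 8347 genes, factors came from TMM, and a quasi-likelihood model with 1 mean for each of 8 groups of feed and time gave the tests, with Benjamini-Hochberg adjustment over all genes tested. Thresholds of DE genes follow the study's methods. CPM used TMM factors. Alternatives were DESeq2 1.42.0, RLE factors, library size alone, other filters, other sets of libraries, a robust spread, other fold thresholds and each library left out in turn. Tables and figures used Python 3.11.15, pandas 2.3.3 and matplotlib 3.10.9.

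Named genes were every DE gene, the 10 genes of smallest adjusted p among those that rose and among those that fell, and the members with a gene symbol of the lists of cellulases, β-glucosidases, hemicellulases, transporters, sugar metabolism and transcription factors. Others named were chosen after their values were seen. The members and lists were chosen with earlier results of these data known. Gene functions are those of the study's annotation where it holds the gene (650 genes). Other lists, such as those of ribosomal proteins, proteasome subunits and histones, were matched on RefSeq gene symbols. Only 226 genes carry such a symbol, so that these lists need not hold every member. Of the gene IDs, 9072 matched RefSeq (assembly v2.0), which gave the gene order.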

Additional observations from a re-analysis of the deposited data

Results flagged for a closer look

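In the 6 G100 libraries at 24 h, 1 library lay far from the others in 2 of 79 named genes (2.53%), where chance alone gives about 1 in 20 groups. ID 75336 had 127 CPM in replicate 5 of G100, and the nearest of the other libraries was at 118 CPM. YPR1 had 8.93 CPM in replicate 6 of G100, and the nearest of the others was at 6.43 CPM. Both values lie on the G100 side of comparisons in which ID 75336 fell (log2 fold change −0.41) and YPR1 did not pass the test over all 36 libraries (log2 fold change 2.14).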

How the results depend on the processing

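DE genes higher on G90-L10 than on G100 at 24 h numbered 18, against 49 with DESeq2, 56 in a fit of only the 8 libraries compared, 71 in the 18 libraries of 24 h, 82 in the 33 libraries and 4 with glmTreat (log2 fold change beyond 1). With a library left out they ranged from 5 to 71. DE genes lower numbered 1, against 2, 3, 6 and 12 in the first 4 of these settings and 0 with at least 10 counts in every library (range with a library left out 0 to 6). Genes higher at an adjusted p below 0.05 numbered 312, against 172 with library size alone, 1188 in the 8 libraries, 919 in the 18 and 1030 in the 33 (range 21 to 879). Genes lower numbered 79, against 192 with DESeq2, 1021 in the 8 libraries, 635 in the 18 and 683 in the 33 (range 1 to 488, 39 without G100 replicate 5). The share of calls that were higher was 79.8%, against 67.7% with DESeq2, 53.8% in the 8 libraries, 59.1% in the 18, 60.1% in the 33 and 64.3% without replicate 3 of L100 at 48 h. The cause was not tested, but the common biological coefficient of variation was 0.237 in 36 libraries and 0.161 in 33. Scaling by library size alone moved the median over all tested genes to a log2 fold change of −0.144. Against G75-L25 the calls numbered 0, against 67 with DESeq2, 327 in the 18 libraries and 111 in the 33 (range 0 to 299). Against L100 they numbered 1132, against 4547 with library size alone, 2364 in the 18 libraries and 2593 in the 33 (range 79 to 2245). DE genes at 48 h numbered 7, against 19 with DESeq2 and 63 in the 33 libraries (range 0 to 47, with 0 without either G90-L10 library). Interaction calls were 0 in each setting run. Members of the lists called higher numbered 53, against 83 in the 8 libraries and 80 in the 18. Those called lower numbered 4, against 7 with DESeq2, 2 with library size alone, 63 in the 8 libraries, 37 in the 18 and 39 in the 33. Of the 57 named genes that were called, 23 lost the call without replicate 1 of G90-L10 and 41 without replicate 2. Only XYN2 (−0.02) turned its direction, at a log2 fold change of 0.39 without replicate 1 of G90-L10 and of 0.0023, 0.16 and 0.24 without replicates 2, 3 and 4 of G100 (range −0.60 to 0.39). No paired analysis was possible because the labels carry no replicate numbers, only serial library numbers: the numbers used here follow the accession order, and although the study's methods describe flasks of different feeds filled from 1 culture, the labels do not say which libraries these are. Depth limits genes with few reads, such as ID 105806.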

Other observations

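Cytochromes P450, oxidases of secondary and xenobiotic metabolism, moved in both directions in the 33 libraries. Of 14 listed by the study, which chose them on these libraries, 4 rose and 0 fell over 36 libraries (1 lower at an unadjusted p below 0.05 and 0 lower by DESeq2), and 7 were higher and 3 lower over 33. ID 70984 had 226 and 246 CPM on G90-L10, against 18.5 to 55.6 CPM (median 34.2) on G100 (log2 fold change 2.73, SE 0.54, adjusted p = 0.0029). ID 56272 had 22 and 13.6 CPM on G90-L10, against 0.686 to 3.89 CPM (median 1.95) on G100 (log2 fold change 3.09, SE 0.70, adjusted p = 0.01). Both lay above every G100 library, as did ID 73344 and ID 57555, whose log2 fold changes were 2.24 and 1.29.

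Of 19 peptidases, 3 rose and 1 fell. The one that fell was the putative pepsin pap1, with 28.6 and 15.4 CPM on G90-L10, against 53.5 to 136 CPM (median 65.3) on G100 (log2 fold change −1.77, SE 0.49, adjusted p = 0.0325). The putative peptidases ID 5369, ID 103039 and ID 108540 rose with log2 fold changes of 2.42, 1.45 and 1.35. Of 8 amino acid transporters, ID 70998 rose, with 128 and 91 CPM on G90-L10, against 7.82 to 23.8 CPM (median 15.1) on G100 (log2 fold change 2.87, SE 0.61, adjusted p = 0.00613), and ID 5787 fell. Of 6 histone genes, hhp1 fell, with 457 and 519.9 CPM on G90-L10, against 571 to 673 CPM (median 624) on G100 (log2 fold change −0.34, SE 0.093, adjusted p = 0.0325), and over the 33 libraries 3 were lower. The study also chose the peptidases and amino acid transporters on these libraries. Genes named here were chosen after their values were seen.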
